A study of Homo sapiens with 2 samples.

Results

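Strong FLAG-wt-Cdx2 peaks that had no FLAG-wt-Cdx1 peak nearby were examined in the chromatin immunoprecipitation-sequencing (ChIP-seq) data of DLD1-TetOff cells. A peak was called strong when at least 13 fragments were piled up at its summit, and it was called unmatched when no FLAG-wt-Cdx1 summit lay within 1000 bp of its own. Peaks on the 22 autosomes were used, without a block on the long arm of chromosome 8. Of the 218718 FLAG-wt-Cdx2 peaks, 21968 were strong by this definition, and 5494 of these were unmatched (25.0%; 95% Wilson interval, 24.4 to 25.6). The other 16474 strong peaks are called matched. The unmatched peaks were thus chosen by their FLAG-wt-Cdx2 pileup and by their distance to FLAG-wt-Cdx1 summits, and both are given below as a description without a test.

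The DLD1-TetOff line derives from a human colon cancer and carries a transactivator that is shut off by doxycycline (DOX). Mouse wt-Cdx1 or wt-Cdx2, each with a FLAG tag, was expressed from a DOX-repressed promoter in TetOff clones grown from single cells, so that each factor was examined in a cell clone of its own. There was 1 library for each factor, made from cells of 10 dishes that were pooled. The cells had been without DOX (0.5 µg/mL) for 20 h. Chromatin was prepared by fixation with 1% formaldehyde for 5 min, digestion with micrococcal nuclease for 50 min and precipitation with anti-FLAG beads. The sample descriptions mention DOX-treated cells without tagged protein, while the protocols state that DOX was removed. The libraries are therefore treated as induced. No library from input DNA or from cells without a tagged factor was analyzed here. The methods of the study report that DLD1-TetOff clones made Cdx1 sooner than Cdx2 after induction, and the amounts of the proteins at 20 h were not measured here. Consequently, factor, clone, protein level and library cannot be told apart, no test between the factors was made, and all intervals cover counting error only.

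CDX1 and CDX2 are caudal-type homeobox transcription factors that specify and maintain the intestinal epithelium. Their homeodomains are closely related and recognize AT-rich sites with a TTTAT core. The factors are known to share many target genes in the intestine, and CDX2 is the main regulator of intestinal identity during development. In ChIP-seq, fragments bound by the tagged protein pile up at its binding sites. The summit of a peak is the position with the most fragments.

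The depths of the libraries differed. After removal of duplicates, the authors kept 16452141 FLAG-wt-Cdx1 tags and 13781541 FLAG-wt-Cdx2 tags, a ratio of 1.19. The threshold of 13 fragments for FLAG-wt-Cdx2 corresponds to 15 fragments at the depth of FLAG-wt-Cdx1. Under the mirrored definition (15 or more fragments, no FLAG-wt-Cdx2 summit within 1000 bp), 4589 of 18583 strong FLAG-wt-Cdx1 peaks were unmatched (24.7%). Among all 213370 autosomal FLAG-wt-Cdx2 peaks outside the chromosome 8 block, 60.8% had no FLAG-wt-Cdx1 summit within 1000 bp.

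The unmatched peaks were mostly just above the threshold of pileup. Their median pileup was 14 fragments (quartiles, 13 and 16), against 15 (14 and 19) for the matched peaks. In total, 2079 unmatched peaks (37.8%) had exactly 13 fragments and 1227 (22.3%) had 14. Only 326 unmatched peaks (5.93%) reached 20 fragments and 22 reached 30, whereas 3702 (22.5%) and 1105 (6.71%) of the matched peaks did so. Even so, a pileup of 13 was higher than that of 89.8% of all FLAG-wt-Cdx2 peaks. The median fold enrichment, the ratio of pileup to local background with a pseudocount of 1, was 7.33 for the unmatched peaks and 7.95 for the matched peaks. The median −log10 q was 8.89 and 10.1, respectively.

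The unmatched share fell with each step of pileup. It was 75.8% (75.4 to 76.1) among weak peaks of 4 to 6 fragments and 48.5% (48.0 to 49.0) at 10 to 12 fragments. Just inside the threshold, at 13 fragments, it was 36.7% (35.5 to 37.97), and just outside, at 12 fragments, 3284 of 7966 peaks (41.2%) were unmatched. It decreased to 25.2% (24.04 to 26.5) at 15 to 16 fragments, 11.9% (10.6 to 13.3) at 20 to 24 fragments and 1.95% (1.29 to 2.94) at 30 or more. The intervals of neighboring classes did not overlap from 4 to 6 fragments up to 30 or more. Hence FLAG-wt-Cdx2 peaks of 30 or more fragments nearly always had a FLAG-wt-Cdx1 summit within 1000 bp. Pileup is not corrected for background, so that it does not measure occupancy by the factor.

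**Figure D1:**
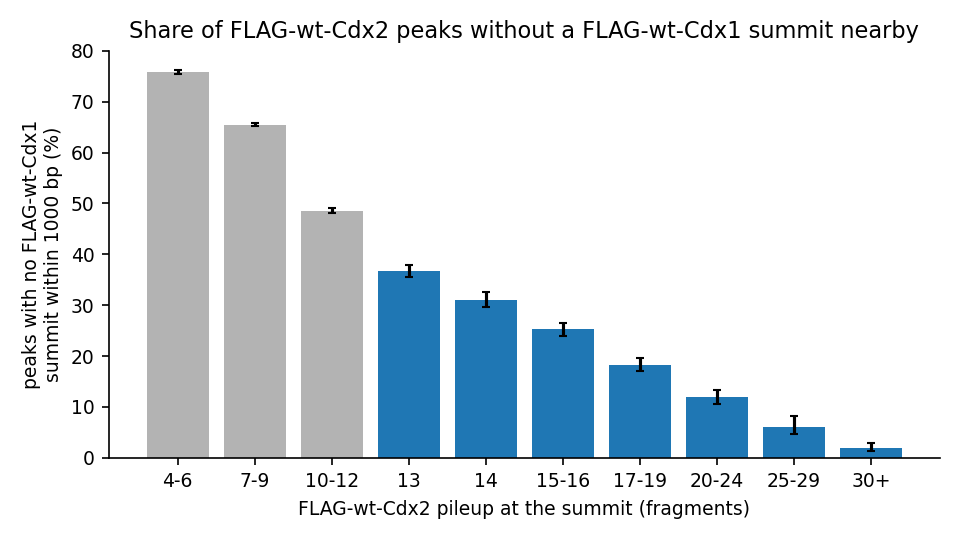
Share of FLAG-wt-Cdx2 peaks with no FLAG-wt-Cdx1 summit within 1000 bp (y axis, percent) by the number of fragments at the summit (x axis), with 95% Wilson intervals. Blue bars are the strong peaks; the share falls from 36.7% at 13 fragments to 1.95% at 30 or more, and grey bars show the weaker peaks, up to 75.8%.

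The distance rule did not cut through a dense group of peaks. Of the 21968 strong peaks, 11252 (51.2%) had a FLAG-wt-Cdx1 summit within 50 bp, and the median distance of the matched peaks was 28 bp. Far fewer, 861 strong peaks, had it at more than 500 and up to 1000 bp. In the last 100 bp inside the limit there were 141 strong peaks, and in the first 100 bp outside it 121. The unmatched peaks were at a median of 4370 bp from the nearest FLAG-wt-Cdx1 summit (quartiles, 2319 and 8496 bp). The nearest summit was within 2000 bp for 1091 of them, at over 2000 and up to 5000 bp for 1948, at up to 10000 bp for 1367 and at up to 50000 bp for 1074. Of those farther away, 8 were at up to 100 kb and 6 beyond it. In all, 4406 unmatched peaks (80.2%) had a FLAG-wt-Cdx1 summit within 10 kb, against 71.3% of the weaker FLAG-wt-Cdx2 peaks that had none within 1000 bp. That nearest FLAG-wt-Cdx1 peak had a median of 10 fragments at distances up to 10000 bp, against 9 in the whole FLAG-wt-Cdx1 list. It reached 15 fragments for 741 unmatched peaks (13.5%), as did 9.79% of the autosomal FLAG-wt-Cdx1 peaks outside the block.

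Unmatched peaks were shorter than matched peaks. Their median length was 195 bp (quartiles, 169 and 236), against 220 bp (185 and 312) for the matched peaks. Because length rises with pileup, peaks of equal pileup were compared. At 13 fragments the medians were 188 bp for unmatched peaks (95% binomial interval, 185 to 191) and 198 bp for matched peaks (195 to 200). At 16 fragments they were 204 bp (197 to 210) and 216 bp (213 to 220), and at 20 fragments 213 bp (205 to 227) and 239 bp (230 to 250). The unmatched peaks were shorter in all 7 classes of strong peaks, and the difference was larger at the upper quartile. At 20 to 24 fragments the lower quartiles were 194 and 205 bp and the upper quartiles 259 and 369 bp for unmatched and matched peaks. Weaker FLAG-wt-Cdx2 peaks showed the same order of medians in each class. At 10 to 12 fragments the medians were 172 bp without and 181 bp with a FLAG-wt-Cdx1 summit within 1000 bp. Among the strong peaks, at least 300 bp were covered by 647 unmatched peaks (11.8%) and 4439 matched peaks (26.9%). A peak cannot be shorter than the fragment length of its library, which was 136 bp for FLAG-wt-Cdx2, and 84 unmatched peaks (1.53%) and 76 matched peaks (0.461%) had this length. A longer peak can hold more than 1 bound site under 1 summit.

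**Figure D2:**
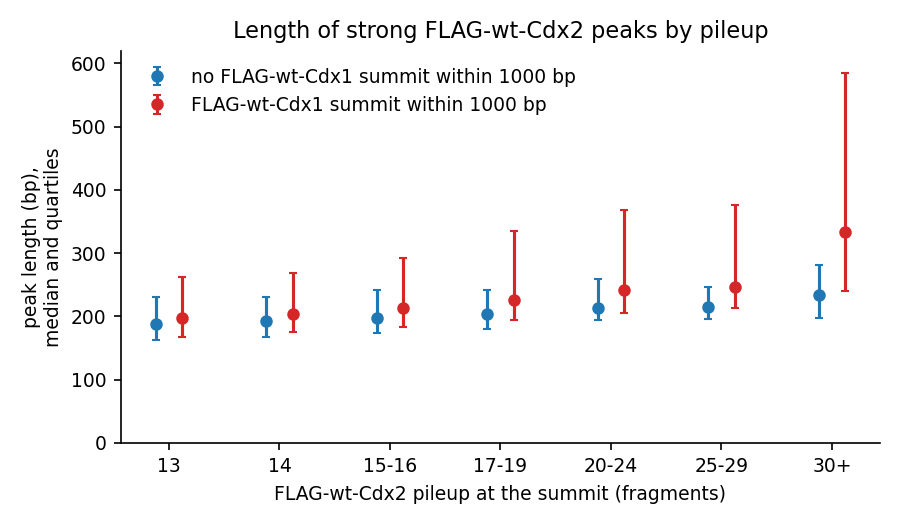
Length of strong FLAG-wt-Cdx2 peaks in bp (y axis) by the number of fragments at the summit (x axis); points are medians and bars the quartiles over peaks. The unmatched peaks (blue) have the lower median in every class, from 188 bp at 13 fragments, and their upper quartiles stay below those of the matched peaks (red).

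The absence of a FLAG-wt-Cdx1 peak was then set against what the FLAG-wt-Cdx1 list could detect. A peak was called where its pileup was improbable over the local background, so that the lowest callable pileup rises with the background. In the FLAG-wt-Cdx1 list, the lowest −log10 p called was 2.96, and this value fixes the lowest callable pileup for each background. Over a background below 1 fragment the lowest pileup called was 5, over 1.5 to 2 fragments it was 6, and over 2 to 3 fragments it was 8. The background at an unmatched peak was taken from the nearest FLAG-wt-Cdx1 peak. On this basis the limit was 5 fragments at 3724 unmatched peaks (67.8%), 6 at 1287 (23.4%) and 7 at 322 (5.86%), and it was higher at the other 161 (2.93%). Stretches above the limit that are shorter than 131 bp, the fragment length of this library, are not called either.

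The pileups of the unmatched peaks were compared with these limits as they would be at equal occupancy per tag. Scaled to the depth of FLAG-wt-Cdx1, the weakest of them correspond to 15.5 fragments. The scaled pileup was at least 2 times the limit at 5420 of the 5494 unmatched peaks (98.7%), against 98.5% of all strong peaks, and nothing about the unmatched peaks is read from it. It was at least 3 times the limit at 4125 (75.1%), against 74.9% of matched peaks, and at least 5 times at 159 (2.89%), against 11.3%. The median ratio was 3.10 (quartiles, 3.07 and 3.58). The definition sets most of this outcome, since 15.5 fragments are at least 2 times any limit up to 7. With the limit taken from the highest FLAG-wt-Cdx1 background within 100 kb, 5143 unmatched peaks were at 2 times the limit or more. No such number is given for the matched peaks, and nothing is read from it either. FLAG-wt-Cdx1 fragments below the limit were not visible in the lists, so that the ratio does not measure the difference between the libraries.

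**Figure D3:**
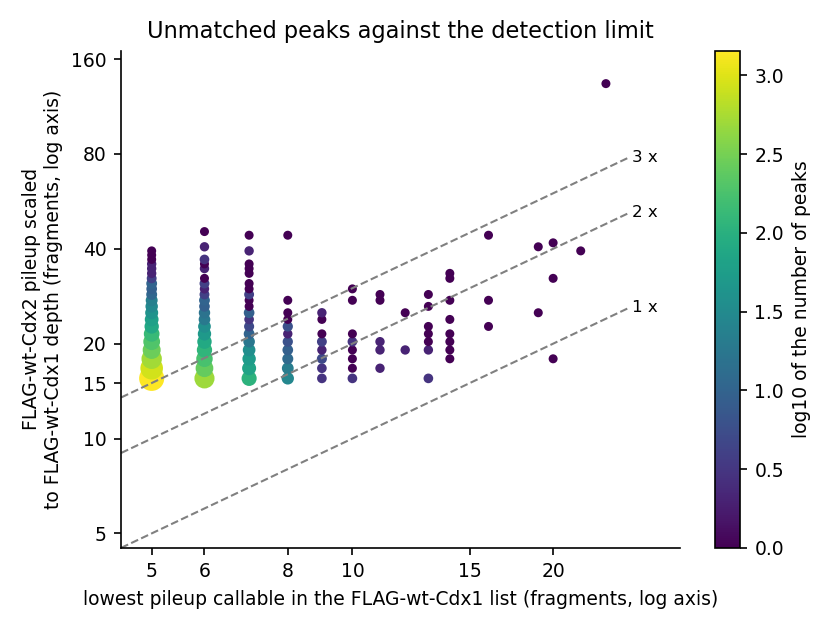
FLAG-wt-Cdx2 pileup of the unmatched peaks scaled to FLAG-wt-Cdx1 depth (y axis, fragments, log axis) against the lowest pileup callable in the FLAG-wt-Cdx1 list at the background of the nearest FLAG-wt-Cdx1 peak (x axis, fragments, log axis). Color gives the number of peaks at each point and dashed lines mark 1, 2 and 3 times the limit; 5420 of 5494 peaks lie on or above the line for 2 times, and 1 lies below the line for 1 time.

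Matched peaks of the same strength show how FLAG-wt-Cdx1 varies where it was called. At the 3585 matched peaks with 13 FLAG-wt-Cdx2 fragments, the nearest FLAG-wt-Cdx1 peak had a median pileup of 12 fragments (quartiles, 9 and 15), and 217 of them (6.05%) had 7 or fewer. At 20 FLAG-wt-Cdx2 fragments the median was 15 fragments (12 and 19), and 12 of 572 (2.10%) had 7 or fewer. The FLAG-wt-Cdx1 pileups at matched peaks therefore spread down to the limit. Matched peaks are those with a called FLAG-wt-Cdx1 peak, so that pileups below the limit are not seen. Of all FLAG-wt-Cdx2 peaks with 13 and 20 fragments, 36.7% and 13.1% were unmatched, and nothing about these is read from the spread.

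The individual unmatched peaks with the highest pileup were examined next. The positions are given in GRCh37, the build named in the submitters' processing notes. The highest pileup, 112 fragments (95% exact Poisson interval, 92.2 to 135), was at chr1:7628115-7629920. This peak was 1806 bp long over a background of 21.6 times the genome-wide value, and a FLAG-wt-Cdx1 peak of 102 fragments overlapped it by 1795 bp. It met the rule only because the summits within these long intervals were 1025 bp apart. The same was found at chr3:194047263-194048766, with 24 fragments and an overlap of 1413 bp. Shorter peaks lay at chr2:230429104-230429485, with 37 fragments, and at chr11:71072914-71073191, with 17 fragments. They overlapped long FLAG-wt-Cdx1 intervals of 1458 and 1414 bp by 361 and 219 bp. These 4 are the unmatched peaks whose interval overlapped a FLAG-wt-Cdx1 interval, and they do not lack FLAG-wt-Cdx1 signal.

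Among the others, the peak at chr2:196172537-196172755 had the highest pileup, with 38 fragments (26.9 to 52.2) and was enriched 13.6-fold. At 1416 bp lay the nearest FLAG-wt-Cdx1 summit, with 14 fragments. The scaled pileup of 45.4 fragments was 7.56 times the limit of 6 fragments. Peaks of 37 fragments were found at chr2:32400688-32401044, where the nearest FLAG-wt-Cdx1 summit was 2291 bp away with 7 fragments, and at chr2:70476681-70476986, where it was 1724 bp away with 14 fragments. Peaks of 34 fragments were found at chr4:84246219-84246595, with a fold enrichment of 12.1, and at chr14:74236992-74237183, with 11.9. The nearest FLAG-wt-Cdx1 summits were 2373 bp and 4694 bp away. All 5 peaks were between 192 and 377 bp long, and their scaled pileups were 5.52 to 7.56 times the limit.

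A further pair of peaks in this group stood on a high background. The peaks at chr4:49639124-49639372 and chr4:49641328-49641463, beside the centromere, had 35 and 34 fragments but fold enrichments of only 2.84 and 2.75, over backgrounds of 16.8 and 16.9 times the genome-wide value. Their scaled pileups were 2.09 and 2.14 times a limit of 20 and 19 fragments. By contrast, the peak at chr2:89218485-89218715 had 33 fragments over 1.88 times the genome-wide background, with a fold enrichment of 14.7. Its nearest FLAG-wt-Cdx1 summit was 12313 bp away, and its ratio to the limit, 7.88, was the highest of all unmatched peaks. Without the bin of 1 Mb that holds it, 5489 unmatched peaks were counted.

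The next highest ratios were found at chr20:52271282-52271551 (32 fragments, 7.64 times the limit), chr2:73208999-73209283 (31 fragments, 7.40 times) and chr12:102792812-102793057 (30 fragments, 7.16 times). The last of these had a fold enrichment of 15.0 and its nearest FLAG-wt-Cdx1 summit at 4119 bp. At the other end, 1 unmatched peak had a scaled pileup below the limit, at chr9:68412773-68412938. Its 15 fragments correspond to 17.9 at the depth of FLAG-wt-Cdx1, where the nearest peak stood over 11.5 times the genome-wide background and the limit was 20 fragments. With this limit a FLAG-wt-Cdx1 peak of like strength would not have been called. However, the limit was taken from a FLAG-wt-Cdx1 peak 4691 bp away. At the site itself the FLAG-wt-Cdx2 background was 4.35 times the genome-wide value.

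High backgrounds were rare among the unmatched peaks. Their median background was 1.61 times the genome-wide value, against 1.67 times for matched peaks, and 257 (4.68%) against 1496 (9.08%) were above 3 times. At equal pileup the order was not constant. For unmatched and matched peaks, the median backgrounds were 1.05 and 1.02 fragments at a pileup of 13, 1.18 and 1.12 at 16, and 1.24 and 1.31 at 20. The backgrounds of all strong peaks include fragments of the peak itself.

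The unmatched peaks were spread over all autosomes and followed the strong peaks. Chromosome 2 held most of them, with 686 (12.5% of the unmatched peaks), and it also held 12.5% of all strong peaks. In 15 of 22 chromosomes the unmatched share lay between 23.3% and 27.5% of the strong peaks. It was highest on chromosome 17, with 207 of 673 (30.8%; 27.4 to 34.3), and on chromosome 15, with 181 of 605 (29.9%; 26.4 to 33.7). The lowest shares were found on chromosome 19, with 76 of 491 (15.5%; 12.5 to 18.9), and chromosome 20, with 109 of 641 (17.005%; 14.3 to 20.1). The intervals of chromosomes 15 and 17 did not overlap those of chromosomes 19 and 20, and counting error does not include variation between cultures. Among peaks of 13 or 14 fragments alone, the shares were 43.7% on chromosome 17, 39.8% on chromosome 15, 25.1% on chromosome 19 and 24.2% on chromosome 20. Chromosome 16, with a share of 19.5% in all, had 33.2% in this class.

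**Figure D4:**
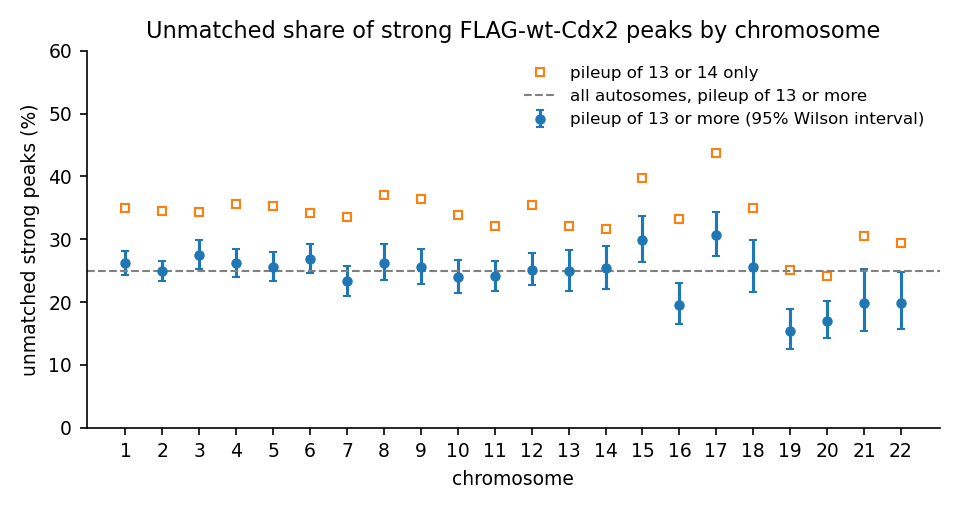
Unmatched share of the strong FLAG-wt-Cdx2 peaks (y axis, percent) for each autosome (x axis); circles are all strong peaks with 95% Wilson intervals, squares are peaks of 13 or 14 fragments, and the dashed line is the share over all autosomes, 25.0%. The whole intervals of chromosomes 3, 15 and 17 lie above the line, and those of chromosomes 16, 19, 20 and 22 below it.

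The number of FLAG-wt-Cdx1 peaks per FLAG-wt-Cdx2 peak differed between these chromosomes. It was 0.778 on chromosome 17 and 0.816 on chromosome 15, but 1.07 on chromosome 19 and 1.13 on chromosome 20, the highest of all autosomes. Chromosome 22 had the lowest number, 0.775, but a low unmatched share of 19.9%. Across the 22 chromosomes Pearson's r between both measures was −0.54 and Spearman's rho −0.12, as a description without a test, since both measures come from the same lists. In bins of 1 Mb, the unmatched share was 28.8% (27.1 to 30.5) where there were 0.5 to 0.7 FLAG-wt-Cdx1 peaks per FLAG-wt-Cdx2 peak, 24.7% (23.7 to 25.7) at 0.85 to 1, and 21.3% (19.9 to 22.7) in the next class above 1. It was highest below 0.5, with 35 of 88 strong peaks (39.8%; 30.2 to 50.2), and lowest in the class of highest ratio, with 277 of 1628. A part of this relation is fixed by the definition, because a summit that matches a strong peak also counts in the bin.

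On a finer scale, unmatched peaks were found in 2009 of the 2601 bins of 1 Mb with a strong peak. In 633 bins there was 1 unmatched peak, and in 24 bins there were 10 or more, which together held 313 unmatched peaks. Of these 24 bins, 12 lay on chromosome 2, between positions 32000001 and 71000000. The bin with the most unmatched peaks, at chr2:32000001-33000000, had 27 unmatched of 54 strong peaks. Its local background was 2.16 times the genome-wide value in the FLAG-wt-Cdx2 library and 1.74 times in the FLAG-wt-Cdx1 library. Here and below, the background of a bin is the median over the peaks called in it. The share in these 12 bins of chromosome 2 ranged from 22.4% to 50.0%, and together 171 of their 505 strong peaks (33.9%) were unmatched, against 24.9% on the whole chromosome. The bins were picked for their number of unmatched peaks, which raises this share.

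Other bins had a high share rather than many strong peaks. Among the 93 bins with 20 or more strong peaks, the median share was 23.8%. The highest was found at chr17:57000001-58000000, where 15 of 22 strong peaks (68.2%) were unmatched and the FLAG-wt-Cdx1 list held 60 peaks and the FLAG-wt-Cdx2 list 103. At chr8:95000001-96000000 the share was 11 of 21 (52.4%), with 72 and 104 peaks, and at chr3:154000001-155000000 it was 12 of 24 (50.0%), with 91 and 110 peaks. In the bin on chromosome 17, the FLAG-wt-Cdx1 background was 1.26 times and the FLAG-wt-Cdx2 background 1.61 times the genome-wide value, and at chr3:154000001-155000000 it was 1.21 and 1.18 times. The part of regional background in these shares was not tested. In 4 of the 93 bins no strong peak was unmatched, among them chr10:42000001-43000000, with 38 strong peaks over 11.7 times the genome-wide background, and chr16:46000001-47000000, with 35.

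The 6 unmatched peaks beyond 100 kb from any FLAG-wt-Cdx1 summit fell almost together. Of these, 5 lay on chromosome 18 between positions 65243652 and 69589928, and 1 on chromosome 15 at chr15:23482078-23482281. The farthest, at chr18:69589640-69589928, had 16 fragments (9.15 to 25.98), a fold enrichment of 9.58 and a distance of 526844 bp. The peak at chr18:67680558-67680769 also had 16 fragments, at 106027 bp from the nearest FLAG-wt-Cdx1 summit. The peaks at chr18:69351589-69351796, chr18:65243652-65243886 and chr18:65827997-65828196 had 14, 13 and 13 fragments, at distances of 370241, 398529 and 172616 bp. These peaks were 200 to 289 bp long, all above the median of 195 bp of the unmatched peaks. They stood over 1.00 to 1.74 times the genome-wide background.

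They lay in a stretch of chromosome 18 in which the FLAG-wt-Cdx1 list was nearly empty. From position 63000001 to 70000000, 38 FLAG-wt-Cdx1 peaks were called, 0 to 11 per Mb, against 355 FLAG-wt-Cdx2 peaks, 30 to 76 per Mb. In the 5 Mb before this stretch there were 291 and 331 peaks, and in the 5 Mb after it 278 and 341. The change was abrupt on the distal side, where the FLAG-wt-Cdx1 peaks went from 0 in the last bin to 43 in the next. A search for neighboring bins with fewer than 1 FLAG-wt-Cdx1 peak for every 3 FLAG-wt-Cdx2 peaks, among bins with at least 20 of the latter, found 1 other run, at chr19:20000001-22000000, which held 0 strong peaks. In the stretch, 9 of 13 strong FLAG-wt-Cdx2 peaks were unmatched (69.2%), against 9 of 30 before it and 3 of 19 after it. The FLAG-wt-Cdx1 peaks within it had a median pileup of 9 fragments, like those on either side. The median local background of the called peaks stood at the genome-wide value in both libraries. The background is never set below this value, and a lower FLAG-wt-Cdx1 background would therefore not be visible. The unmatched peaks of this stretch cannot be told apart from a general lack of FLAG-wt-Cdx1 fragments there. They made up 9 of the 5494, and without the stretch the unmatched share was 25.0%.

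**Figure D5:**
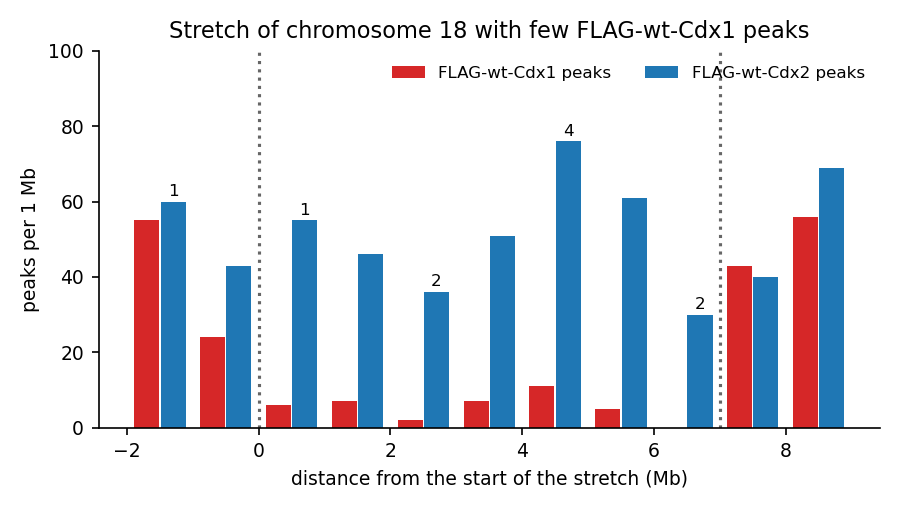
FLAG-wt-Cdx1 (red) and FLAG-wt-Cdx2 (blue) peaks per 1 Mb (y axis) along chromosome 18, by distance from the start of the stretch with few FLAG-wt-Cdx1 peaks (x axis, Mb; dotted lines, its edges). Digits above the blue bars are the unmatched strong peaks of the bin; within the stretch there are 38 red and 355 blue peaks.

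Unmatched peaks were mostly far from each other, but not from other FLAG-wt-Cdx2 peaks. A FLAG-wt-Cdx2 peak of any strength lay within 10 kb at 84.6% of unmatched and 83.6% of matched peaks. The median distance from an unmatched peak to the next unmatched peak was 110692 bp, and 670 of them (12.2%; 11.4 to 13.1) had another within 10 kb. When peaks at most 10 kb apart were joined into runs, 4824 unmatched peaks stood alone, 574 formed 287 pairs, 78 formed 26 runs of 3, and 18 formed 4 longer runs. Summits did not come closer than 257 bp to each other, and only 4 steps between neighbors were of 300 bp or less. A strong FLAG-wt-Cdx2 peak of either kind lay within 10 kb at 1577 unmatched peaks (28.7%; 27.5 to 29.9) and 5058 matched peaks (30.7%; 30.003 to 31.4). This gap lay among very close neighbors, since a strong peak lay within 1000 bp at 172 (3.13%; 2.70 to 3.62) and 1523 (9.24%; 8.81 to 9.70). Such a neighbor was itself unmatched for 90.1% of these unmatched and 0.919% of these matched peaks. The windows around summits this close overlap, so that the definition couples their status and nothing is read from this gap. The order was reversed when the nearest strong neighbor was at over 2000 and up to 10000 bp, as at 1067 unmatched (19.4%; 18.4 to 20.5) and 2707 matched peaks (16.4%; 15.9 to 17.01).

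The nearest strong neighbor of each peak was examined for its own status. When the nearest strong neighbor lay within 2000 bp, it was unmatched for 278 of 510 unmatched peaks (54.5%) and for 210 of 2351 matched peaks (8.93%). At this range the windows around both summits overlap, so that the definition itself couples them. At over 2000 and up to 5000 bp the neighbor was unmatched for 25.9% (22.3 to 29.8) of unmatched and 31.1% (28.5 to 33.8) of matched peaks, and at up to 10000 bp for 28.96% (25.3 to 32.9) and 26.5% (24.3 to 28.8). At over 10 and up to 25 kb the shares were 27.97% (25.3 to 30.8) and 24.5% (23.02 to 26.1). At over 25 and up to 100 kb these values were 28.8% (26.9 to 30.8) and 24.2% (23.1 to 25.3). Unmatched neighbors were thus more frequent around unmatched peaks in each of the bands from 5 to 100 kb, and less frequent from 2000 to 5000 bp. The intervals did not overlap at over 25 and up to 100 kb, but they did in the other bands from 2000 bp to 25 kb. Peaks that were nearest to each other were both counted, and the intervals treat them as independent.

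The longest run comprised 6 unmatched peaks at chr1:145010508-145036543, over 26035 bp. Their pileups were 17, 13, 25, 23, 20 and 13 fragments, over backgrounds of 3.35 to 6.47 times the genome-wide value, and the fold enrichments were 4.13 to 6.09. In the same interval, the FLAG-wt-Cdx1 list had 5 peaks, and 9 strong FLAG-wt-Cdx2 peaks were called in all. The nearest FLAG-wt-Cdx1 summits, inside or outside the interval, were 1832 to 5950 bp from the unmatched summits. A run of 4 at chr10:39139496-39154769, beside the centromere, stood over a median of 6.45 times the genome-wide background with limits of 13 and 14 fragments, and 3 of its 4 peaks had the shortest possible length. The scaled pileups there were 15.5 to 27.5 fragments, and 15.5 fragments were close to the limit.

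The other runs of 4 stood over lower median backgrounds in the FLAG-wt-Cdx2 library. These were 2.28 times the genome-wide value at chr1:200742461-200758461 and 3.26 times at chr1:51576547-51588227. The latter was close to the 3.59 times of the longest run. At chr1:200742461-200758461 the pileups were 16, 19, 17 and 13 fragments, with fold enrichments of 5.90 to 6.99, and 1 FLAG-wt-Cdx1 peak was called in the 16000 bp between the outer summits. The limits were 5 and 6 fragments, and the nearest FLAG-wt-Cdx1 summits were 1502 to 14154 bp away. At chr1:51576547-51588227 the pileups were 16, 14, 14 and 13 fragments, with fold enrichments of 4.27 to 5.61 and limits of 6 fragments. In both runs all strong FLAG-wt-Cdx2 peaks of the interval were unmatched.

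Genes, promoters and sequences at these peaks are not reported. The gene and promoter tables used here give positions in GRCh38, to which the positions of the lists cannot be compared, so that neither CDX motifs at the summits nor distances to transcription start sites were determined.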

How the data were processed

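ChIP-seq peak lists of 1 library per factor were used as deposited, and samples were grouped by their titles. Per the file headers, the authors called peaks in each library by MACS 2.0.10.20131216 without a control library, using a q-value limit of 0.05, at most 1 tag kept per position, an effective genome size of 2700000000 bp and a local background of 10000 bp. The submitters' processing notes name GRCh37, bcl2fastq 1.8.3, cutadapt 1.1 and Trimmomatic 0.32. The headers mention both bowtie and BWA, so that the aligner is unclear. The deposited values are the pileup signal in fragments (not scaled to depth), the −log10 p and −log10 q of each peak, the fold enrichment as a ratio, and the length and positions in bp, which are used here as other values without a scale. The second deposited format of each list held identical peaks when checked and was left out.

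From these, the local background was recovered as (pileup + 1)/fold − 1. The deposited −log10 p was then the Poisson tail of the pileup over this background within 7.07e-05 at every peak, which gave the lowest callable pileup. All called FLAG-wt-Cdx1 peaks (100%) were at or above it. Pileups were scaled by kept tags (ratio 1.19). Shares have 95% Wilson intervals, pileups exact Poisson intervals and medians binomial intervals. With 1 library per factor no test was made, and precision is limited by counting at these depths of 16452141 and 13781541 tags. The regions named are the 10 unmatched peaks of highest pileup, those over 100 kb from any FLAG-wt-Cdx1 summit, the longest runs of peaks at most 10 kb apart and the 5 highest ratios to the limit. All 4 longest runs are given, since 3 were of equal size. The single peaks overlapping a FLAG-wt-Cdx1 interval or below the limit, the bins of 1 Mb and the stretch of chromosome 18 were chosen after their values were seen. The definition of the peaks and all measures were chosen with earlier results of these data known. Distances were tested with partners planted at known distances from FLAG-wt-Cdx2 summits, and runs and limits on small inputs with known answers. Alternatives covered the distance, the pileup, the threshold, the regions and the background. The software was scipy 1.17.1, pandas 2.3.3, numpy 2.4.6 and matplotlib 3.10.9 under Python 3.11.15.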

Additional observations from a re-analysis of the deposited data

How the results depend on the processing

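The number of unmatched peaks stayed within 1.5 times of 5494 under 11 of 13 alternatives. Several of these 11 add or remove few peaks and could not move the number far. Examples are 5495 with the chromosome 8 block and 5490 without the overlapping intervals. With a distance of 500 or 2000 bp, or with intervals that must not overlap, the number was 4403 to 6668. It was 2188 with at least 15 fragments and 326 with at least 20, since fewer peaks enter. Their share of the strong peaks, 25.0%, was 28.9% with a distance of 500 bp, 20.0% with 2000 bp, 30.4% when the intervals must not overlap, 17.7% with at least 15 fragments, 8.09% with at least 20, and 25.9% without backgrounds over 3 times the genome-wide value. The share of unmatched peaks with another close by, 12.2%, was 8.08% within 5 kb, 20.7% within 25 kb, 7.36% with at least 15 fragments and 10.4% without the high backgrounds. Fewer peaks enter in the last 2; any further cause was not tested. With at least 15 fragments, the median length was 203 bp, and the unmatched share was 17.6% on chromosome 2, 21.2% on chromosome 17 and 8.68% on chromosome 19, still the highest and lowest for chromosomes 17 and 19. The number at 2 times the limit or more was 5143 to 5263 over its 3 alternatives, and the definition sets most of it. The alternatives that leave out the stretch of chromosome 18, 1 Mb of chromosome 2, overlapping intervals or high backgrounds were chosen after seeing the data. Alternatives for motifs were not run, since no sequence of the build was used. No paired analysis was possible because each factor had 1 library. Binding below 5 FLAG-wt-Cdx1 fragments was not detectable at this depth.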

Other observations

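Outside the definition used above, chromosome X had 177 FLAG-wt-Cdx2 peaks with 13 or more fragments, and 49 of these (27.7%; 95% Wilson interval, 21.6 to 34.7) had no FLAG-wt-Cdx1 summit within 1000 bp. In the block of chromosome 8 that was left out, 1 of 129 such peaks (0.775%; 0.137 to 4.26) was unmatched.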
